A study of Homo sapiens and Mus musculus with 15 samples.

Results

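The genes described here are 34 autophagy and aggresome genes, chosen by name as a list of pathway members, out of 23346 genes in each human and 23329 genes in each mouse count table. All 34 were listed in both sets of tables, in capitals for human and title case for mouse, and the capital form is used below for both. They comprise 5 cargo receptors, 5 ATG8 proteins, 21 genes of the core machinery and 3 aggresome genes. RNA sequencing covered 15 libraries from 2 myeloma lines, with 3 libraries in each of 5 groups. RPMI-8226, called 8226 here, is a line from a human plasma cell myeloma, and 5TGM1 is a mouse line passaged from a spontaneous plasma cell myeloma of C57Bl/KaLwRij mice. The groups were 8226 resistant to carfilzomib (8226 CR, kept in 10 nM carfilzomib), 8226 resistant to bortezomib (8226 BR, kept in 10 nM bortezomib), naive 8226, 5TGM1 resistant to bortezomib (5TGM1 BR, kept in 20 nM bortezomib) and naive 5TGM1. All resistant cells were selected over months in rising drug and were off the drug for 5 days before RNA was extracted. All were cultured cell lines, used within a month of thawing per the labels. Nothing in the labels ties the 3 libraries of a group to separate cultures, so p-values reflect only the spread among these libraries, and that spread may be technical. Every resistant group is a single selected line, so drug, selection and drift cannot be told apart.

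Macroautophagy encloses cytoplasm in a double membrane, the autophagosome, which then fuses with lysosomes. Initiation kinases, a lipid kinase complex, lipid transfer proteins and 2 ubiquitin-like conjugation systems build that membrane and attach ATG8 proteins to it, and cargo receptors bridge ubiquitin and ATG8. The aggresome is a vimentin-caged deposit of misfolded protein gathered by HDAC6 along microtubules. Myeloma cells make large amounts of antibody protein, and autophagy and the aggresome are the routes that handle misfolded protein beside the proteasome, which bortezomib and carfilzomib inhibit.

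Libraries held 31709636 to 34339788 reads on genes in 8226 BR, 39032731 to 58419576 in the other 8226 libraries and 49097494 to 72288680 in 5TGM1. Within groups, the correlation between libraries across genes was 0.995 to 0.998. Reads on no annotated gene were 10.8% to 12.8% in 8226 CR, 14.9% to 16.6% in 8226 BR and 10.4% to 12.9% in naive 8226, and their part in the results was not tested. Of the plasma cell markers, 8 of 8 averaged at least 1 CPM (reads of a gene per megaread on genes) in every 8226 group and 6 of 7 in both 5TGM1 groups, with summed levels of 1532.0 to 1592 (8226 CR), 1711 to 1748 (8226 BR), 2353 to 2545 (naive 8226), 4936 to 5032 (5TGM1 BR) and 3913 to 4120.2 (naive 5TGM1) CPM. In bulk RNA, fewer cells of a type and less RNA per cell cannot be told apart. Levels below are CPM on library sizes scaled by TMM within each line, as mean ± SD (n = 3), so levels of 8226 and 5TGM1 are not on 1 common scale. Counts are not divided by transcript length, so levels of different genes are not compared. Changes are log2 fold changes ± SE of the first-named group over the second. The test was the quasi-likelihood F test of edgeR, its p-values were adjusted over all tested genes by the Benjamini-Hochberg method, and calls were made below an adjusted p of 0.05.

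Whether selection in bortezomib changed these genes in 8226 was asked first. 8226 BR cells held more transcript of 3 receptors and 3 ATG8 genes, led by GABARAPL1 and OPTN, and almost none of the initiation kinase ULK2. GABARAPL1 stood 15.6-fold and OPTN 3.68-fold above naive. Of the 33 members tested, 17 were higher and 11 lower, and 5 were not called. That is 84.8% called, against 79.8% of all 13910 genes tested (38.2% higher and 41.6% lower). The members' median log2 change was 0.12, against -0.03 for all genes. By class, 3 of 5 receptors were higher and 1 lower, 3 of 4 tested ATG8 genes were higher and 0 lower, and the 21 core genes split into 9 higher and 9 lower. The class medians were 0.34, 0.89 and -0.09. A change of at least 2-fold was called in 6 of the 33 tested members, a smaller share than the 32.5% of all genes. The groups did not overlap in 17 members that were higher and 12 that were lower, against 79.6% of all genes. With library size alone in place of TMM, the median of all genes shifted by 0.18 and the members split into 20 higher and 7 lower.

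The same question was put to selection in carfilzomib. 8226 CR cells held less transcript of 19 of these genes than naive cells (16 with library size alone, where the calls of OPTN, ULK1 and ATG13 ended), and CALCOCO2, VIM, ATG16L1 and ATG9A led the 11 that were higher. CALCOCO2 stood 2.76-fold above naive, and ATG4B was 2.05-fold below. Of the 33 members tested, 11 were higher, 19 lower and 3 not called. That is 90.9% called, against 71.7% of all genes (35% higher and 36.7% lower). The members' median was -0.21, against -0.0036 for all genes. Of the receptors 1 was higher and 4 lower, of the tested ATG8 genes 1 was higher and 2 lower, and of the core genes 7 were higher and 12 lower. The class medians were -0.21, -0.23 and -0.26, and 6 of the 33 tested members changed at least 2-fold, against 24.3% of all genes. The groups did not overlap in 11 higher and 18 lower members, against 73.1% of all genes. Both comparisons use the same 3 naive 8226 libraries, so their changes are not independent, and the resistant lines were compared directly as well.

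In that direct comparison, 8226 CR held less of every tested ATG8 gene than 8226 BR, less OPTN, PIK3C3 and ATG4B, and more CALCOCO2 and WIPI1. GABARAPL1 was 11.1-fold and OPTN 4.14-fold lower in 8226 CR. Of the 33 members tested, 11 were higher in CR, 18 were lower and 4 were not called. That is 87.9% called, against 76.9% of all genes (39.9% higher and 37% lower). Under library size alone 8 were higher and 19 lower, as the calls of ULK1, ATG7 and WIPI2 ended and SQSTM1 was called lower. The call of ATG3 (-0.15) ended with no filter and in several fits that left out 1 library. All 4 tested ATG8 genes were lower (median -1.12), 3 of 5 receptors were lower and 1 higher (median -0.22), and the core genes split into 9 and 9 (median 0.06). The median of all genes was 0.02. A change of at least 2-fold was called in 8 of the 33 tested members, against 27.9% of all genes. The groups did not overlap in 11 higher and 18 lower members, against 79.8% of all genes. The numbers of higher members, higher core genes and members past 2-fold include ULK2, with 18 counts in CR and 1 in BR. ULK2 passed the filter on low counts only through the naive libraries, so its entry there carries no weight.

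**Figure D1:**
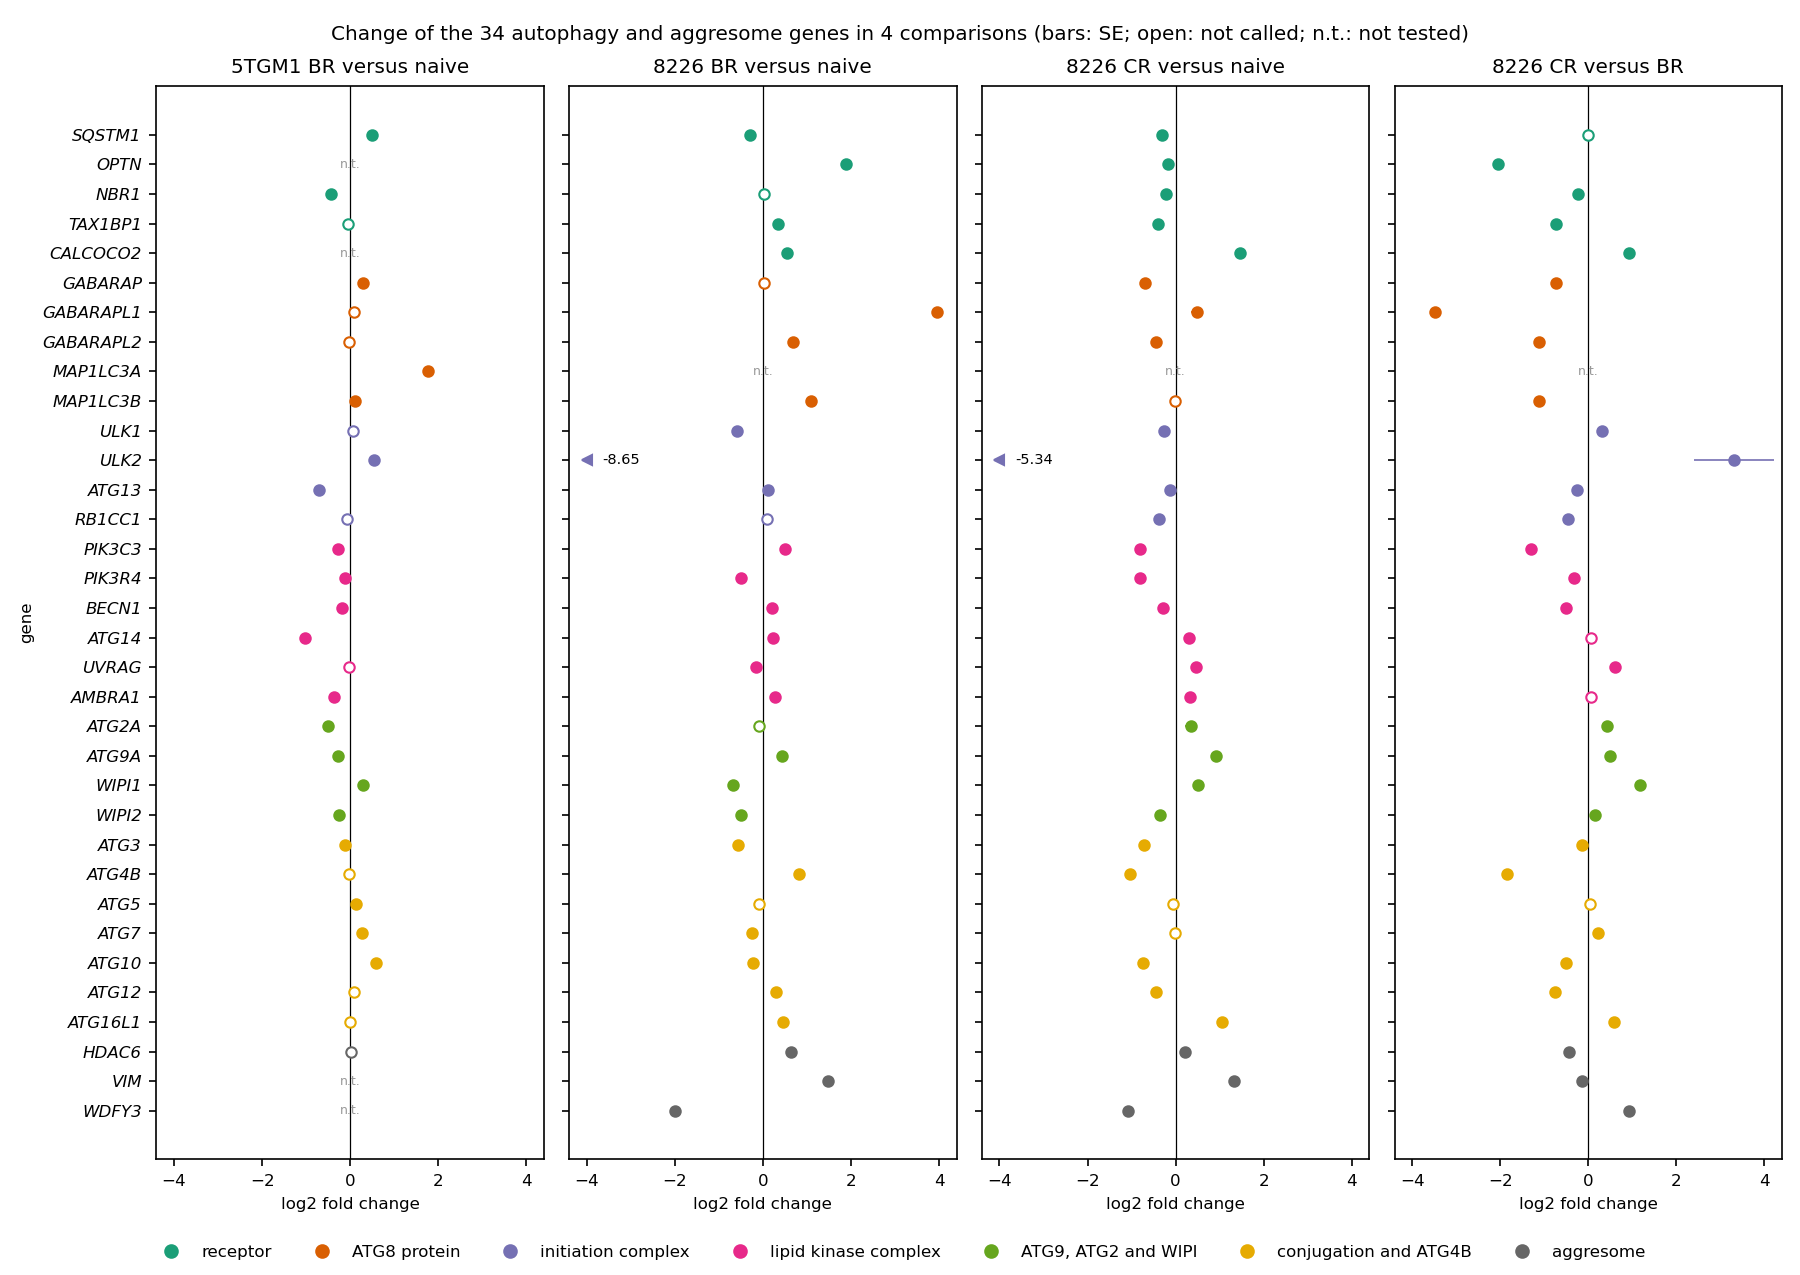
Log2 fold change (horizontal axis) of each of the 34 genes (vertical axis, coloured by role) in 4 comparisons, with the SE as bars; filled points were called, open points were not, and n.t. marks genes too low to test. ULK2 lies beyond the axis at -8.65 and -5.34 in the comparisons of 8226 BR and 8226 CR with naive cells, fitted values that rest on 1 and 18 counts, and the 4 tested ATG8 genes all lie left of 0 in 8226 CR versus BR.

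Among the receptors, OPTN encodes optineurin, which links ubiquitinated cargo to ATG8 proteins. Its levels were 33.9, 33.6 and 34.5 CPM in 8226 CR, 143, 142 and 138 CPM in 8226 BR, and 38.1, 40.3 and 36.4 CPM in naive 8226. The 3 groups did not overlap, and 8226 BR stood apart on the high side. OPTN was higher in BR than naive (1.88 ± 0.0534, adjusted p = 4.5e-14), lower in CR than BR (-2.05 ± 0.0535, adjusted p = 2.05e-14) and slightly lower in CR than naive (-0.17 ± 0.0536, adjusted p = 0.0099). That small fall was no longer called with library size alone (-0.11). CALCOCO2 encodes NDP52, a receptor for ubiquitin-coated bacteria and mitochondria. It was at 229, 218 and 233 CPM in 8226 CR, 115, 121 and 123 CPM in 8226 BR, and 79.99, 88.5 and 77.6 CPM in naive 8226. The groups were again fully separate, in the order CR, BR, naive from high to low. The changes were 1.47 ± 0.0584 (CR versus naive, adjusted p = 4.1e-12), 0.54 ± 0.0581 (BR versus naive) and 0.92 ± 0.0575 (CR versus BR).

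SQSTM1 encodes p62, the receptor that condenses ubiquitinated protein into bodies. Its levels were 329, 323 and 335 CPM in 8226 CR, 326, 320.1 and 349 CPM in 8226 BR, and 411, 389.5 and 414 CPM in naive 8226. Both resistant groups lay below the naive one and overlapped each other. SQSTM1 fell in CR (-0.30 ± 0.0509, adjusted p = 8.0e-05) and in BR (-0.29 ± 0.0510, adjusted p = 9.2e-05) relative to naive cells. With library size alone the fall in BR was not called (-0.10, adjusted p = 0.0762). CR and BR differed by -0.01 ± 0.0510 (adjusted p = 0.86), but CR was called lower than BR with library size alone (-0.14). TAX1BP1, a receptor related to CALCOCO2, averaged 197 ± 3.15 CPM in CR, 327 ± 15.4 CPM in BR and 258 ± 12.1 CPM in naive cells, so it was lower in CR (-0.39) and higher in BR (0.34) than in naive cells. NBR1, which recruits SQSTM1 bodies to autophagosomes, averaged 185 ± 5.73 CPM in CR, 216 ± 3.03 CPM in BR and 213 ± 7.15 CPM in naive cells. It was lower in CR than naive (-0.21), and BR with naive gave 0.02 (adjusted p = 0.77; 0.20 and called higher with library size alone).

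The ATG8 proteins are small ubiquitin-like proteins joined to the autophagosome membrane, in a GABARAP and an LC3 branch. GABARAPL1 was at 1.79, 2.22 and 1.98 CPM in 8226 CR, 22.8, 21.0 and 22.3 CPM in 8226 BR, and 1.17, 1.64 and 1.46 CPM in naive 8226. Only the 8226 BR libraries were clearly raised, and the CR libraries lay just above the naive ones. Its changes were 3.96 ± 0.112 (BR versus naive, adjusted p = 4.4e-14), 0.49 ± 0.143 (CR versus naive, adjusted p = 0.0066) and -3.47 ± 0.103 (CR versus BR). MAP1LC3B, encoding LC3B, the usual marker protein of autophagosomes, was at 66.2, 66.7 and 68.4 CPM in 8226 CR, 149.96, 144 and 142 CPM in 8226 BR, and 66.5, 74.3 and 62.6 CPM in naive 8226. CR and naive libraries overlapped, and BR libraries were all higher. MAP1LC3B was higher in BR than naive (1.10 ± 0.0609, adjusted p = 1.5e-10) and lower in CR than BR (-1.12 ± 0.0607), and CR with naive gave -0.01 ± 0.0609 (adjusted p = 0.84).

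GABARAPL2, also called GATE-16, was at 81.6, 82.2 and 78.1 CPM in 8226 CR, 178, 173 and 177 CPM in 8226 BR, and 103, 119 and 107 CPM in naive 8226. The groups did not overlap, with BR above and CR below the naive libraries (BR versus naive 0.68 ± 0.0567, CR versus naive -0.44 ± 0.0570, CR versus BR -1.13 ± 0.0572). GABARAP averaged 73.1 ± 4.31 CPM in CR, 121 ± 4.70 CPM in BR and 118 ± 3.82 CPM in naive cells. It was lower in CR than in naive cells (-0.70 ± 0.0560), and BR with naive gave 0.03 ± 0.0556 (adjusted p = 0.66; 0.21 and called higher with library size alone). MAP1LC3A, encoding LC3A, had 0 counts in all 9 human libraries, which allows up to 0.0198 CPM over the CR, 0.0279 CPM over the BR and 0.0248 CPM over the naive libraries. Reads that fit near-identical copies (MAP1LC3B2 for MAP1LC3B and GABARAPL3 for GABARAPL1) were set aside in the authors' counting, so the levels of these 2 genes are uncertain.

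**Figure D2:**
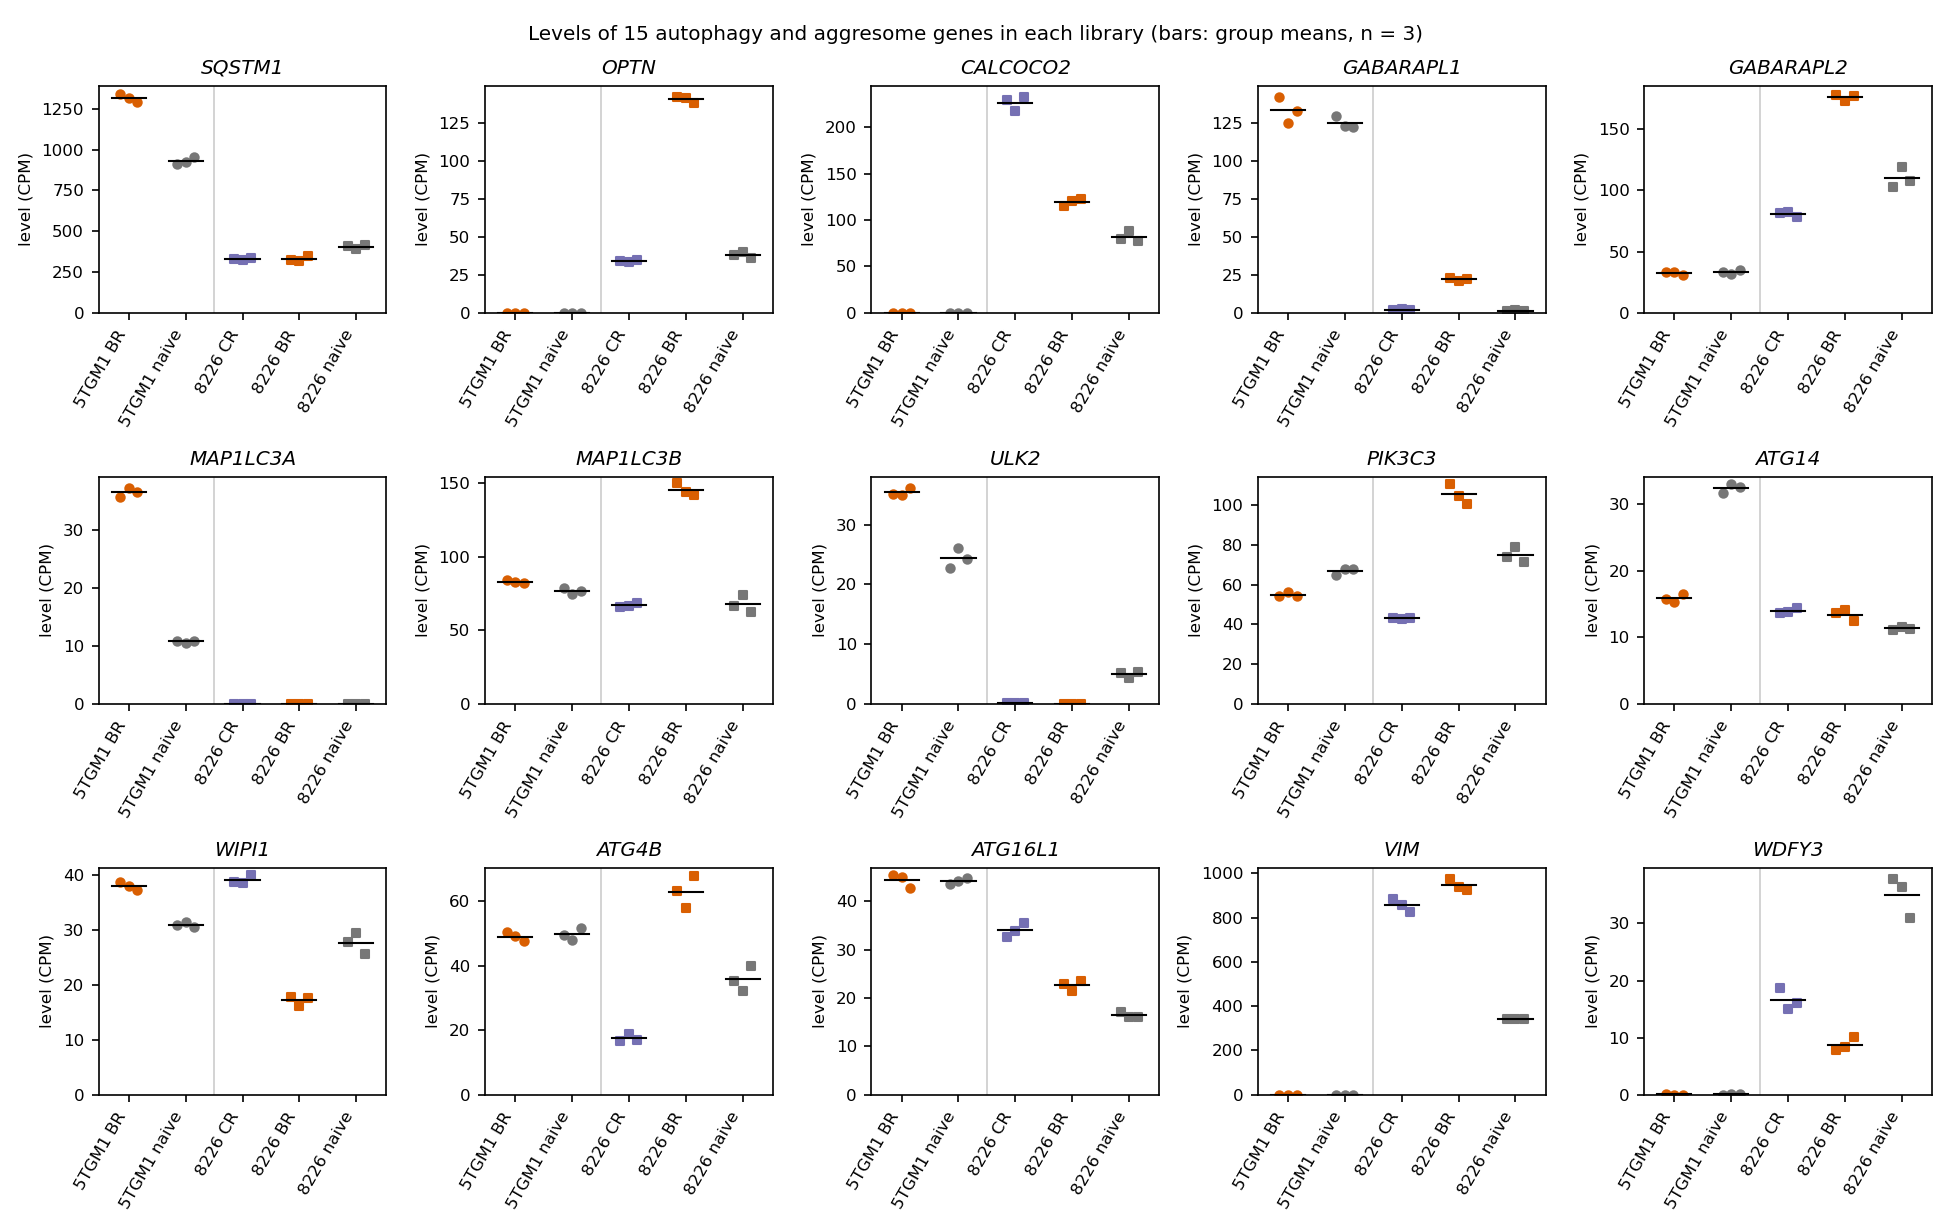
Level in CPM (vertical axes from 0, 1 scale per gene) of 15 genes in every library, by group, with bars at group means of 3 libraries; circles are 5TGM1 and squares 8226. GABARAPL1, OPTN and MAP1LC3B are high in 8226 BR alone among the 8226 groups, ULK2 is near 0 in both resistant 8226 groups, and MAP1LC3A is detected only in 5TGM1.

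Of the initiation complex, ULK2, a kinase that with its paralog ULK1 starts autophagosome formation, was the member with the largest fall. It had 18 counts over the 3 libraries of 8226 CR, 1 count over 8226 BR and 597 counts over naive 8226, or 0.0950, 0.193 and 0.0869 CPM in CR, 0.0272, 0 and 0 CPM in BR, and 5.20, 4.29 and 5.29 CPM in naive cells. ULK2 in CR was at 2.41% of the naive level (95% exact counting interval 1.42% to 3.84%), and in BR at 0.189% (0.00477% to 1.06%). These intervals cover counting error only. Both falls were called (adjusted p = 1.1e-11 in CR and 7.5e-12 in BR). The ratio of CR to BR was 12.8 with an interval of 2.02 to 532, as it rests on 1 count. ULK1 averaged 17.1 ± 0.791 CPM in CR, 13.7 ± 1.29 CPM in BR and 20.5 ± 2.91 CPM in naive cells, and it was lower in BR (-0.58 ± 0.1001). In CR the fall (-0.26 ± 0.0965) was no longer called with library size alone (-0.20) or when naive replicate 1 (-0.16), CR replicate 2 or CR replicate 3 (both -0.24) was left out. RB1CC1, the scaffold FIP200, was lower in CR than naive (-0.37), and BR with naive gave 0.09, which was not called. It was called higher in BR with library size alone (0.28) and without BR replicate 3 (0.17). ATG13, an adaptor of the same complex, changed by 0.12 in BR and -0.12 in CR, calls that several alternatives ended.

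The class III lipid kinase complex makes the phosphoinositide that marks the growing membrane. PIK3C3, its catalytic subunit VPS34, was at 43.0, 42.8 and 43.3 CPM in 8226 CR, 111, 105 and 101 CPM in 8226 BR, and 74.2, 79.0 and 71.3 CPM in naive 8226. BR libraries were above and CR libraries below all naive ones. The changes were 0.50 ± 0.0553 (BR versus naive), -0.80 ± 0.0562 (CR versus naive) and -1.30 ± 0.0563 (CR versus BR, adjusted p = 9.3e-12). PIK3R4, its regulatory subunit VPS15, was lower in CR (-0.81) and in BR (-0.49) than in naive cells. BECN1, the scaffold Beclin 1, was lower in CR (-0.29) and higher in BR (0.21). UVRAG, which directs the complex to endosomes, was higher in CR (0.46) and lower in BR (-0.15), and that fall turned to 0.035 with library size alone and was not called without any 1 of naive replicates 1 and 2 or BR replicates 2 and 3 (-0.15 to -0.13). ATG14, which directs it to autophagosomes, was higher in CR (0.30) and in BR (0.24), and so was AMBRA1, a Beclin 1 binding protein (0.33 and 0.27).

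The 4 genes of the ATG9, ATG2 and WIPI group supply lipid to the membrane and read the phosphoinositide. All 4 were called higher in CR than in BR, against 39.9% of all genes, but the WIPI2 call ended under several alternatives. In WIPI1, a phosphoinositide reader, levels were 38.8, 38.5 and 40.1 CPM in 8226 CR, 17.8, 16.2 and 17.6 CPM in 8226 BR, and 27.7, 29.4 and 25.6 CPM in naive 8226. Naive libraries lay between the resistant groups without overlap (CR versus naive 0.50 ± 0.0646, BR versus naive -0.68 ± 0.0684, CR versus BR 1.18 ± 0.0673, adjusted p = 2.4e-10). ATG9A, a lipid scramblase carried on vesicles, averaged 84.9 ± 2.97 CPM in CR, 60.6 ± 1.97 CPM in BR and 45.0 ± 6.22 CPM in naive cells, and was higher in CR (0.92) and BR (0.43) than in naive cells. ATG2A, a lipid transfer protein, was higher in CR than naive (0.34), and BR with naive gave -0.09 (adjusted p = 0.48; -0.27 and called without naive replicate 2). WIPI2, the reader that recruits ATG16L1, was lower in CR (-0.35) and BR (-0.51) than in naive cells. Its difference between CR and BR (0.15) was not called with library size alone (0.029) or without BR replicate 1, BR replicate 2 or CR replicate 3 (0.12 to 0.15).

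In the conjugation group, ATG4B, the protease that primes ATG8 proteins and frees them from lipid, was at 16.6, 18.9 and 16.9 CPM in 8226 CR, 63.1, 57.9 and 67.8 CPM in 8226 BR, and 35.2, 32.3 and 39.8 CPM in naive 8226. BR libraries were all above and CR libraries all below the naive ones. The changes were 0.82 ± 0.0817 (BR versus naive), -1.04 ± 0.0851 (CR versus naive) and -1.85 ± 0.0850 (CR versus BR, adjusted p = 1.8e-11). ATG16L1, the subunit that places the conjugation enzymes on the membrane, was at 32.7, 33.8 and 35.6 CPM in 8226 CR, 22.8, 21.4 and 23.5 CPM in 8226 BR, and 17.2, 16.1 and 16.1 CPM in naive 8226. It was highest in CR, with no overlap between groups (CR versus naive 1.05 ± 0.0651, BR versus naive 0.46 ± 0.0669, CR versus BR 0.59 ± 0.0640). ATG3, the enzyme that transfers ATG8 to lipid, was lower in CR (-0.71) and BR (-0.56) than in naive cells, as was ATG10, the enzyme that transfers ATG12 (-0.74 and -0.23). ATG12, the ubiquitin-like protein joined to ATG5, was lower in CR (-0.45) and higher in BR (0.30). The falls of ATG10 and ATG7 in BR were not called with library size alone (-0.044 and -0.051), nor that of ATG10 without BR replicate 3 (-0.19). ATG7, the activating enzyme, was lower in BR (-0.24) and gave -0.02 in CR (adjusted p = 0.85). ATG5 was called in neither, at -0.05 in CR and -0.09 in BR.

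Of the aggresome genes, VIM encodes vimentin, the intermediate filament that cages the aggresome. It was at 883, 858.5 and 826 CPM in 8226 CR, 975, 939.6 and 925 CPM in 8226 BR, and 340.4, 342 and 341 CPM in naive 8226. Both resistant groups were far above the naive one, whose 3 libraries lay close together. VIM was higher in CR (1.33 ± 0.0492, adjusted p = 1.7e-12) and BR (1.47 ± 0.0494, adjusted p = 3.3e-13), and CR was lower than BR by -0.15 ± 0.0483, a call that ended without BR replicate 1 (-0.12) or CR replicate 3 (-0.12). Because vimentin is also a fibroblast gene, 8 fibroblast markers were read. DCN and LUM had 0 counts in every 8226 library, and COL1A2, COL3A1 and THY1 had 0 counts in both resistant groups. COL1A1 averaged 0.137 ± 0.0488 CPM in CR, 1.14 ± 0.130 CPM in BR and 1.46 ± 0.221 CPM in naive cells. PDGFRB averaged 0.277 ± 0.130 CPM in CR, 0.0643 ± 0.0305 CPM in BR and 0.0913 ± 0.0164 CPM in naive cells, so its mean, like that of VIM, was above naive in CR. FN1, which made up nearly all of the summed level, averaged 8398 ± 685 CPM in CR, 2797 ± 183 CPM in BR and 8272 ± 683 CPM in naive cells. The summed level was 7617 to 8893 CPM in CR, 2587 to 2905 CPM in BR and 7486 to 8701 CPM in naive libraries. The summed level of 8 macrophage markers was 26.6 to 27.8 CPM in CR, 48.5 to 52.1 CPM in BR and 51.3 to 56.8 CPM in naive libraries. Its genes moved in both directions. CD68 averaged 13.7 CPM in CR, 8.63 CPM in BR and 48.3 CPM in naive cells. In the same order, ADGRE1 averaged 6.38, 16.7 and 0.529 CPM, AIF1 2.22, 25.2 and 2.96 CPM, and MPEG1 4.71, 0.0189 and 0.905 CPM. Like VIM, ADGRE1 was above naive in both resistant groups, AIF1 in BR and MPEG1 in CR. The other macrophage markers averaged below 1 CPM in every 8226 group. The part of other cell types in the VIM result was not tested beyond these values.

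WDFY3, encoding ALFY, a scaffold for the selective removal of aggregates, was at 18.7, 15.1 and 16.1 CPM in 8226 CR, 7.87, 8.29 and 10.2 CPM in 8226 BR, and 37.8, 36.3 and 30.9 CPM in naive 8226. Both resistant groups were below the naive one, and BR was lowest (CR versus naive -1.07 ± 0.102, BR versus naive -1.995 ± 0.110, CR versus BR 0.92 ± 0.112). HDAC6, the deacetylase that ferries ubiquitinated protein to the aggresome, averaged 39.3 ± 0.108 CPM in CR, 53.2 ± 1.65 CPM in BR and 34.1 ± 0.858 CPM in naive cells. It was higher in BR (0.64 ± 0.0535) and slightly higher in CR (0.21 ± 0.0533).

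The windows around the transcription starts of 5 members past 2-fold in 8226 BR versus naive are shown, because these carried the largest changes of that comparison. WDFY3, the other such member, had no entry. Of the 34 members, 30 had an entry (all but MAP1LC3A, RB1CC1, UVRAG and WDFY3) in the RefSeq promoter table (build GRCh38.p14, 250 bases before to 50 after the start), which is not the build of the counts. Capitals mark matches to 6 motifs searched on both strands.
OPTN (chr10:13099832-13100131, + strand): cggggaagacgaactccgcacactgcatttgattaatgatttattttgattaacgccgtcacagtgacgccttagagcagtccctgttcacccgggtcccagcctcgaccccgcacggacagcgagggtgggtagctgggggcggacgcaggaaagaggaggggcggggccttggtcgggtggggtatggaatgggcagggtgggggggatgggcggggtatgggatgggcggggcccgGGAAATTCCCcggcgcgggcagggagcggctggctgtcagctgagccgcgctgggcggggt
GABARAPL1 (chr12:10212627-10212926, + strand): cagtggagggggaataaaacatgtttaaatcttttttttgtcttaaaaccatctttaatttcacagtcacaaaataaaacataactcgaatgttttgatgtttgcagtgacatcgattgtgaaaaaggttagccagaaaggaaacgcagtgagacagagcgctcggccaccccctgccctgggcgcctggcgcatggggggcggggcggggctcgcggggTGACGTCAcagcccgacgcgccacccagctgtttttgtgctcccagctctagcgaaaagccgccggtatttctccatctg
MAP1LC3B (chr16:87392086-87392385, + strand): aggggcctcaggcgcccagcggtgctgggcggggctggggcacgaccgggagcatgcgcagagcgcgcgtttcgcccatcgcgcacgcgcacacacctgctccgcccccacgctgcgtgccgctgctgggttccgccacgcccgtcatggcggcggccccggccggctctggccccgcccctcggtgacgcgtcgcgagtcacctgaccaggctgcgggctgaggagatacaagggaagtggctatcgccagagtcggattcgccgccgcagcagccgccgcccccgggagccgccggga
VIM (chr10:17227991-17228290, + strand): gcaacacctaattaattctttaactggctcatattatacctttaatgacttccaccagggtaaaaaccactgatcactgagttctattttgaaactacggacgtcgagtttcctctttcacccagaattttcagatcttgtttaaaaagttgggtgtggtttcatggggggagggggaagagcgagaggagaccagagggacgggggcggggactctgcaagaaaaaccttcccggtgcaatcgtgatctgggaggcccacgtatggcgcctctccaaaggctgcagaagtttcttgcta
ULK2 (chr17:19867887-19868186, - strand): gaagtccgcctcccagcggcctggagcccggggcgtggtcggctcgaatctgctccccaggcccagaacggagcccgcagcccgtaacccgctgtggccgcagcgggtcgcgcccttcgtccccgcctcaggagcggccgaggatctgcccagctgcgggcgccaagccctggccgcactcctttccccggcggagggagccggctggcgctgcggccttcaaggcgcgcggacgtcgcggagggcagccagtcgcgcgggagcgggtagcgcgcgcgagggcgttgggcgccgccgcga
The capitals are a match to 1 form of the NF-kB site (GGG, any 2 bases, TTTCC) in OPTN, on the - strand at bases -11 to -2 from the start, and the cAMP response palindrome TGACGTCA in GABARAPL1, at bases -30 to -23. The second motif was added after the sequences had been seen. OPTN has 2 entries with starts 81 bases apart, and the first is shown. The NF-kB form was found in 1.91% of 34796 promoter windows and the palindrome in 1.84%, and no other member had either. The E-box core CACGTG (7.20% of windows) was found in ATG14 and ATG3, and GTAAACA, a FOXO site (3.42%), in CALCOCO2. Neither TGANTCA, an AP-1 site (7.73%), nor TGATGNAA, an ATF4 composite site (3.63%), was found in a member. These matches are letters in a window and show neither binding nor control.

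The question of bortezomib resistance was then put to 5TGM1. 5TGM1 BR cells held more SQSTM1 and MAP1LC3A and less of 5 lipid kinase complex genes and 3 genes of the ATG9, ATG2 and WIPI group. MAP1LC3A rose 3.39-fold and ATG14 fell 2.05-fold, and these were the only members past 2-fold. Of the 30 members tested, 9 were higher, 11 lower and 10 not called. That is 66.7% called, against 67.2% of 11974 genes tested (34% higher and 33.2% lower), so the members' share was near that of all genes. The members' median was -0.02 and that of all genes 0.0045. Past 2-fold were 9.81% of all genes. The groups did not overlap in 11 higher and 11 lower members, against 69.7% of all genes. Of the receptors tested 1 was higher and 1 lower of 3, of the ATG8 genes 3 of 5 were higher and 0 lower, and of the core genes 5 were higher and 10 lower.

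MAP1LC3A was at 35.8, 37.4 and 36.7 CPM in 5TGM1 BR, against 10.9, 10.6 and 10.9 CPM in naive 5TGM1. The groups were wide apart and narrow within (1.76 ± 0.0499, adjusted p = 2.1e-14). SQSTM1 was at 1339, 1316 and 1289 CPM in 5TGM1 BR, against 909.8, 924 and 954 CPM in naive 5TGM1. All BR libraries were above all naive ones (0.50 ± 0.0396, adjusted p = 1.1e-08). ATG14 was at 15.8, 15.3 and 16.5 CPM in 5TGM1 BR, against 31.7, 33.0 and 32.6 CPM in naive 5TGM1, lower in every BR library (-1.03 ± 0.0495, adjusted p = 1.8e-11). ULK2, nearly lost in resistant 8226, was at 35.2, 35.03 and 36.2 CPM in 5TGM1 BR, against 22.8, 26.1 and 24.3 CPM in naive 5TGM1, higher without overlap (0.54 ± 0.0522, adjusted p = 1.4e-07).

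In the rest of the 5TGM1 members, 5 of 6 lipid kinase genes were called lower, against 33.2% of all genes. Among them were PIK3C3 (-0.29), BECN1 (-0.19) and AMBRA1 (-0.36), and UVRAG gave -0.02 (adjusted p = 0.71). PIK3R4 (-0.12), another of the 5, overlapped between groups, and its call ended with no filter, with the replicate block and without naive replicate 2 or 3 or BR replicate 2 or 3 (-0.11 to -0.09 in the last 4). ATG13 fell to 70.5 ± 3.72 CPM in BR, against 115 ± 4.23 CPM in naive cells (-0.71 ± 0.0469), and ATG2A (-0.51), ATG9A (-0.28) and WIPI2 (-0.25) fell. ATG10 (0.60), WIPI1 (0.30), ATG7 (0.27; 0.11 and not called when strand was disregarded) and ATG5 (0.14; not called without naive replicate 2) rose. GABARAP rose to 300.2 ± 5.42 CPM in BR, against 247 ± 8.36 CPM in naive cells (0.28 ± 0.0401), and MAP1LC3B rose by 0.12, a call that ended without naive replicate 2 (0.096). GABARAPL1, at 142, 125 and 133 CPM in BR and 129, 123 and 122 CPM in naive cells, overlapped between groups (0.09 ± 0.0482, adjusted p = 0.10; called at 0.12 without naive replicate 1 and at 0.14 without BR replicate 2). GABARAPL2, ATG4B, ATG16L1 and HDAC6 were not called, at -0.03 to 0.03. ULK1 (0.08), ATG12 (0.09) and RB1CC1 (-0.08) were not called either, but RB1CC1 was called lower without naive replicate 1 (-0.13). ATG3 fell (-0.12), a call that several alternatives ended. NBR1 fell (-0.43), and TAX1BP1 gave -0.04 (adjusted p = 0.38).

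Of the members, 4 were too low in 5TGM1 to be tested. VIM had 18 counts over the BR and 16 over the naive libraries, WDFY3 had 8 and 20, CALCOCO2 had 3 and 2, and OPTN had 1 and 1. In these mouse cells vimentin and both of these receptors were at or near 0 in both groups, while 8226 expressed them throughout.

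The bortezomib-associated changes of the lines were compared over 12 libraries, with genes matched by symbol ignoring case, which is not an orthology table. Among the 29 members that passed the filter in both lines, the change in 8226 was more positive than that in 5TGM1 in 16 and more negative in 11, and 2 were not called (17 and 7 with library size alone). That is 93.1% called, against 74.9% of 8945 genes (37.7% more positive and 37.2% more negative). Of the 15 members called in the fit of each line, 11 went in opposite directions, against 44.8% of the 4867 genes called in both. SQSTM1, ULK2, WIPI1, ATG7 and ATG10 fell in 8226 BR and rose in 5TGM1 BR. ATG13, PIK3C3, BECN1, ATG14, AMBRA1 and ATG9A rose in 8226 BR and fell in 5TGM1 BR. MAP1LC3B rose in both, and PIK3R4, WIPI2 and ATG3 fell in both. In 8226 the calls of SQSTM1, ATG7 and ATG10 ended with library size alone. Those of ATG10 without BR replicate 3 (-0.19) and of ATG13 under several alternatives also ended. In 5TGM1 those of PIK3R4 and ATG3 (-0.12 each) ended under several alternatives. The 5TGM1 call of MAP1LC3B ended without naive replicate 2 (0.096), and that of ATG7 when strand was disregarded (0.11). For SQSTM1 the change was -0.29 in 8226 and 0.50 in 5TGM1, a difference of -0.77 ± 0.0703 (adjusted p = 8.8e-09). For GABARAPL1 it was 3.96 in 8226 and 0.09 in 5TGM1, a difference of 3.89 ± 0.120 (adjusted p = 3.9e-16). The lines were kept at different bortezomib doses.

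**Figure D3:**
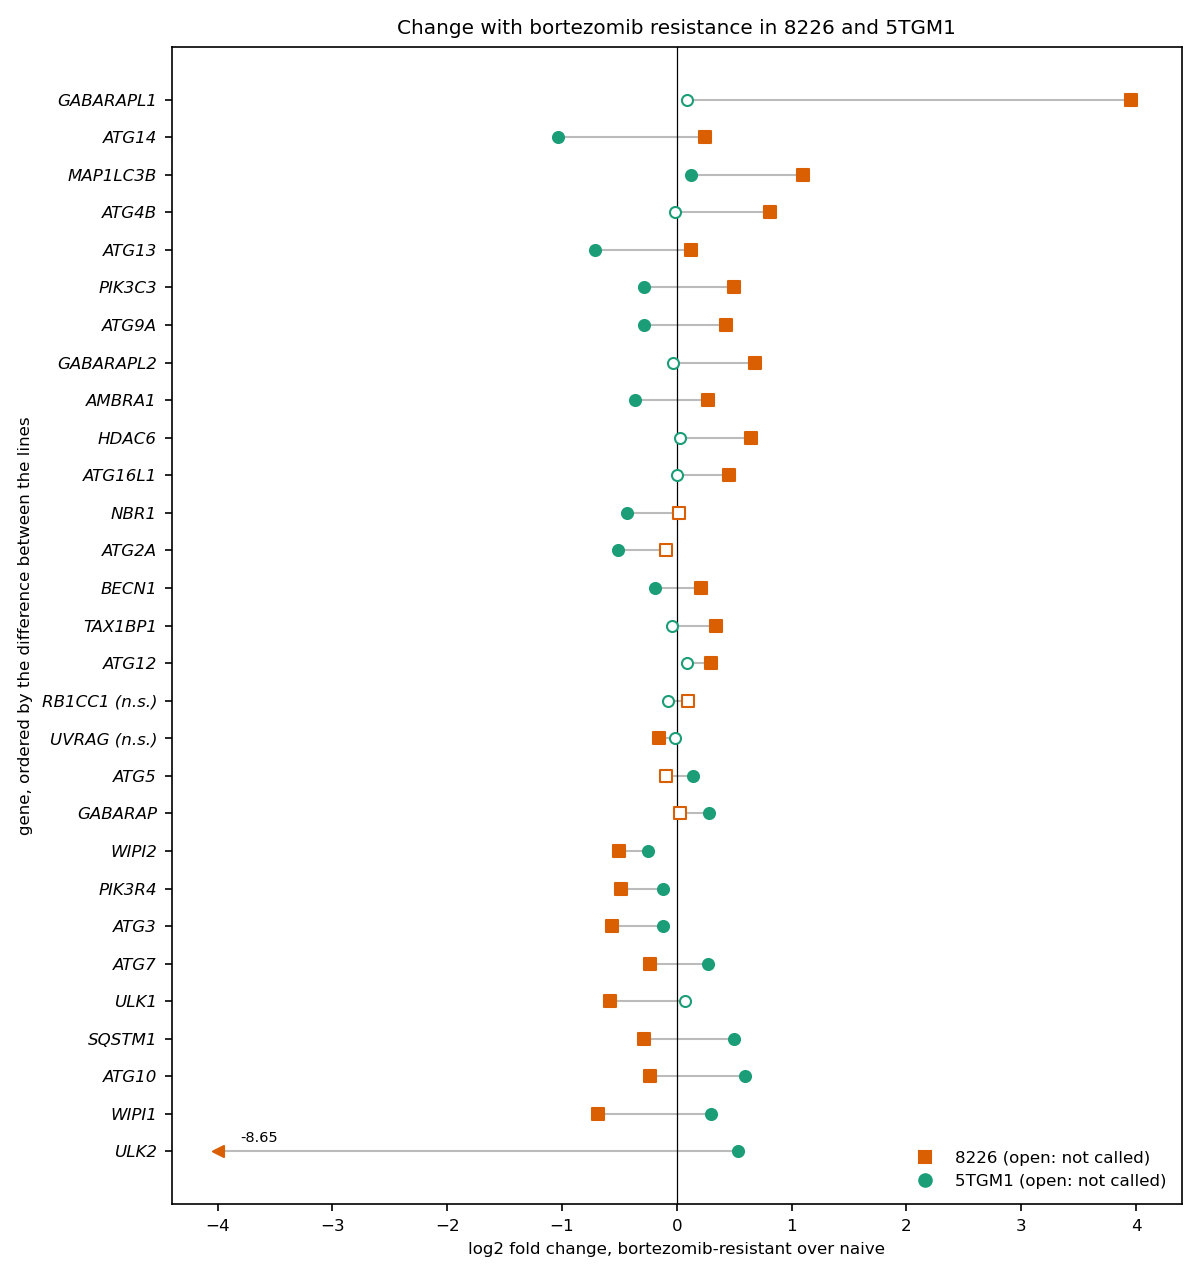
Log2 fold change of bortezomib-resistant over naive cells (horizontal axis) in 8226 (squares) and 5TGM1 (circles) for the 29 genes tested in both lines, ordered by the difference; open symbols were not called in that line and n.s. marks a difference that was not called. GABARAPL1 has the widest gap at the top (3.96 against 0.09), and ULK2 lies beyond the axis at -8.65 in 8226 against 0.54 in 5TGM1.

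A further list of 58 autophagy and aggresome genes outside the members, of which 57 were in the mouse tables, gave the surrounding pathway. In 8226 CR versus naive, 17 of 55 tested were higher and 26 lower (78.2% called, against 71.7% of all genes), with MITF, a relative of the lysosomal regulator TFEB, up by 1.63, and CCPG1, a receptor for autophagy of the endoplasmic reticulum, down by 1.36. In 8226 BR versus naive, 23 of 55 were higher and 21 lower (80% called, against 79.8%), led by BAG3 (1.13), a co-chaperone that steers clients to autophagy, CALCOCO1 (1.11) and TOLLIP (1.00). BAG3 was higher in CR than in naive cells as well (0.87). DDIT4, an inhibitor of the kinase mTOR, which represses autophagy, was lower in BR (-1.84). In 8226 CR versus BR, 17 of 55 were higher and 24 lower (74.5% called, against 76.9%), with DDIT4 (2.19) and MITF (1.36) higher and CALCOCO1 (-1.78) and FUNDC1, a mitophagy receptor (-1.57), lower. In 5TGM1 BR versus naive, 16 of 54 were higher and 11 lower (50% called, against 67.2%), with BNIP3, a mitophagy receptor induced by hypoxia (1.48), and DDIT4 (1.47) higher and NCOA4, the ferritin receptor (-0.89), lower.

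HSPB8, the small heat shock partner of BAG3, stood out by line. It averaged 78.3 ± 1.85 CPM in 5TGM1 BR, against 2.47 ± 0.215 CPM in naive 5TGM1 (5.00 ± 0.0629). In 8226 it averaged 0.535 ± 0.154 CPM in CR, had 0 counts in BR and averaged 2.21 ± 0.265 CPM in naive cells, so it was at least 79.3-fold lower in BR than naive, taking 3 counts over the group as the limit that a count of 0 allows.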

How the data were processed

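RNA from 15 libraries of 2 myeloma lines was sequenced. The authors deposited raw read counts by gene symbol, as whole numbers, in the layout of STAR's gene counts. STAR and the builds mm10, hg19, GRCm38 and GRCh37 are named in the submitters' processing notes without assignment to files, and the version and annotation release are not given in the sources used here. Column 4, which held almost all stranded reads (1.43% to 2.12% lay in the other), was used, and the 4 entries for reads outside genes were left out. Reads mapping to several places (8.95% to 16.3% of a library) are not in the counts. In R 4.3.3, edgeR 4.0.16 was run with TMM scaling, filterByExpr and the quasi-likelihood F test. For comparisons within a line, each line was fitted separately, with all 9 human libraries in 1 fit. The line difference came from a joint fit of 12 libraries of both lines, scaled, filtered and adjusted together over genes matched by symbol. SEs come from the F statistic. The fits were also run on simulated data in which only a small share of genes changed, far below the share called here. That run cannot check the scaling or the error rate of these comparisons. DESeq2 1.42.0, other scalings, no filter, counts without regard to strand, a replicate block, pairwise fits and each library left out were alternatives. Per-library values are given for SQSTM1 and for members called at 2-fold or more in a comparison within a line with at least 1 CPM, and up to 3 further pathway genes per direction were eligible to be named. The members, lists and tests were chosen with earlier results of these data known. Reading the line difference over genes that passed in both lines was decided after seeing the data. Promoter windows are shown for members called at 2-fold or more in 8226 BR versus naive that had an entry.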

Additional observations from a re-analysis of the deposited data

Results flagged for a closer look

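The change with bortezomib resistance differed between 8226 and 5TGM1 in 27 of 29 members by edgeR's test of that difference, with Benjamini-Hochberg adjustment (74.9% of all genes tested in both lines were called). The differences below are the log2 change in 8226 minus that in 5TGM1. Each change rests on 3 resistant and 3 naive libraries of a single selected line, so selection and drift in 1 line cannot be told apart from the line. Among receptors they were -0.77 for SQSTM1, 0.47 for NBR1 and 0.40 for TAX1BP1. Among ATG8 genes they were 3.89 for GABARAPL1, 1.00 for MAP1LC3B, 0.73 for GABARAPL2 and -0.23 for GABARAP. In the initiation complex they were -9.19 for ULK2, which rests on 1 count in 8226 BR, -0.64 for ULK1 and 0.85 for ATG13. In the lipid kinase complex they were 1.30 for ATG14, 0.80 for PIK3C3, 0.65 for AMBRA1, 0.43 for BECN1 and -0.35 for PIK3R4. In the ATG9, ATG2 and WIPI group they were 0.73 for ATG9A, 0.44 for ATG2A, -0.96 for WIPI1 and -0.23 for WIPI2. In the conjugation group they were 0.86 for ATG4B, 0.47 for ATG16L1, 0.24 for ATG12, -0.22 for ATG5, -0.42 for ATG3, -0.49 for ATG7 and -0.81 for ATG10. HDAC6 differed by 0.64. With library size alone, the differences of GABARAP (-0.051), PIK3R4 (-0.17), WIPI2 (-0.052) and ATG5 (-0.034) were not called. That of WIPI2 was also lost without 5TGM1 naive replicate 1, 5TGM1 BR replicate 2 or 8226 BR replicate 2 (-0.20 to -0.19), and that of ATG5 without 5TGM1 naive replicate 2 (-0.18). RB1CC1 (0.19) and UVRAG (-0.11) were not called, but RB1CC1 was called with library size alone (0.38), without 5TGM1 naive replicate 1 (0.25) and without 8226 BR replicate 3 (0.27). Groups of 3 libraries are too small for a test of outlying samples.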

How the results depend on the processing

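Leaving out each library in turn, the members called higher and lower were 7 to 10 and 9 to 11 in 5TGM1 BR versus naive, 16 to 17 and 9 to 11 in 8226 BR versus naive, 11 and 17 to 19 in 8226 CR versus naive, 9 to 11 and 16 to 18 in 8226 CR versus BR, and 16 to 17 and 10 to 11 in the line difference. With library size alone, members lower numbered 7 in 8226 BR versus naive and 7 in the line difference, where all genes shifted by 0.18 in each; every other count stayed within 1.5 times its value under DESeq2 size factors, the DESeq2 Wald test, no filter, counts without regard to strand, the replicate block and pairwise fits. Of called members, 1 changed sign, UVRAG in 8226 BR versus naive (0.035 with library size alone). The other sign changes were in members not called. With DESeq2 size factors they were ATG16L1 in 5TGM1 (-0.0017) and, in 8226 BR versus naive, NBR1 (-0.014) and GABARAP (-0.0030), and with the DESeq2 Wald test the same 3 (-0.0017, -0.014 and -0.0029). With library size alone they were ATG2A (0.094) and ATG5 (0.092) in 8226 BR versus naive, MAP1LC3B (0.048), ATG5 (0.0078) and ATG7 (0.046) in 8226 CR versus naive, ATG14 (-0.063), AMBRA1 (-0.070) and ATG5 (-0.085) in 8226 CR versus BR, and UVRAG in the line difference (0.072). SQSTM1 in 8226 CR versus BR gave 0.0043 with no filter and 0.016 with strand disregarded, and was called lower with library size alone (-0.14). ATG7 in 8226 CR versus naive gave 0.0028 with strand disregarded. Leaving out 1 library at a time, values that crossed 0 ran from -0.067 to 0.0036 for GABARAPL2, -0.058 to 0.014 for UVRAG, -0.048 to 0.011 for ATG4B and -0.012 to 0.037 for ATG16L1 in 5TGM1, from -0.014 to 0.033 for NBR1, -0.0022 to 0.052 for GABARAP and -0.27 to 0.018 for ATG2A in 8226 BR versus naive (ATG2A was called lower without naive replicate 2), from -0.069 to 0.056 for MAP1LC3B and -0.062 to 0.041 for ATG7 in 8226 CR versus naive, and from -0.036 to 0.026 for SQSTM1 and -0.019 to 0.082 for ATG5 in 8226 CR versus BR. The same-numbered libraries were not paired by the data: of 12 same-number correlations of deviations, from -0.11 to 0.16, 1 was over 0.1. The replicate block gave 7716 called genes in 5TGM1 against 8051, ended the calls of PIK3R4 (-0.12) and ATG3 (-0.12) there and of ATG13 in 8226 (0.12 in BR and -0.12 in CR), and ended no other member's call. The causes were not tested. Depth limits ULK2 in resistant 8226 and the 4 members untested in 5TGM1, which rest on 20 counts or fewer per group.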
